A study of Arabidopsis thaliana with 28 samples.

Results

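The genes described here are the Arabidopsis thaliana expansins and xyloglucan endotransglucosylase/hydrolases (XTH) that the array's annotation named by symbol. Members were all probe sets whose annotation named 1 gene with a symbol beginning EXPA, EXPB, EXLA, EXLB or XTH and a digit, apart from EXPA7 and EXPA18. That gave 25 genes with 1 probe set each, 16 expansins and 9 XTH genes, out of 13513 probe sets matched to 1 gene and 22746 in all. The expansins comprised 8 alpha-expansins (EXPA), 4 beta-expansins (EXPB), 3 expansin-like A genes (EXLA) and 1 expansin-like B gene (EXLB). Probe sets matching several genes were not counted, so EXPA22, EXPA23 and EXPA25 were not members. EXGT-A3, for which RefSeq lists XTH27 as a synonym, was treated among the other wall genes. As 8730 of the 22746 probe sets matched no gene, further genes of both families may have gone uncounted.

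Both groups act on the plant cell wall, in which cellulose microfibrils are tied into a matrix of xyloglucan and pectin. Expansins are secreted proteins that loosen the wall without cutting its polymers, which lets turgor stretch the cell. XTH enzymes cut xyloglucan chains and join the new end to another chain or to water, and so remodel the tethers between microfibrils. Expansin-like proteins share the expansin fold, but wall loosening has not been shown for them. Growing tissue expresses many of these genes, and several XTH genes, XTH18, XTH19 and XTH20 among them, are known as root genes.

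The study followed shoots and roots of wild-type plants of accession Col-0 (stock N1092) after UV-B, an ultraviolet radiation that sunlight contains. All plants, grown on Murashige and Skoog medium, were 16 days old when they received UV-B of 1.18 W/m2 for 15 min, given 3 h into a 16 h light period. The groups were shoots at 0.25, 0.5, 1, 3, 6, 12 and 24 h and roots at the same 7 times. Each of these 14 groups had 2 arrays, so that 28 were analysed. What was measured were MAS5 signals, linear brightness values from Affymetrix arrays, which can be compared between samples for 1 probe set but not between probe sets. No untreated plants were analysed here, so 0.25 h in the same tissue was the reference. Whether time 0 was the onset of irradiation or its finish is not given by the labels, so the 0.25 h plants may have been taken as it ended. Time after UV-B cannot be told apart from plant age at any time, nor from hour of day at 0.5 to 12 h. At 24 h the hour of day was close to that at 0.25 h.

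Changes are given as the log2 difference of signal + 9.58 with its standard error, which understates the change of genes with low signals. A gene was called when its limma adjusted p, taken over all 14806 probe sets that passed a filter on low signals, was under 0.05. The labels do not say whether the 2 arrays of a group came from separate plants, so the p-values may reflect technical spread alone. In whole organs, fewer cells of a type and less RNA per cell cannot be told apart. Replicate arrays correlated at 0.978 to 0.994, and array medians were 36.7 to 39.0 in shoots and 44.3 to 47.4 in roots. Of 18 shoot markers, 4 were found by gene symbol (RCA, PSAN, LHCB4.1 and LHCB4.2). Their summed signal was 12147 to 23723 in shoots, against 252 to 509 in roots. Of 21 root markers only PYK10 was found by symbol, with signals of 276 to 1459.9 in shoots, against 3150 to 3799 in roots. The other markers had no match to a single annotated symbol, so the array may still measure them. None of these markers was at 0 in the other organ.

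Of the 25 genes, 15 passed the filter, which asked for a signal over the median of its array in 2 or more of the 28 arrays. These were XTH16, XTH18, XTH19, XTH20 and XTH32 among the XTH genes, and EXPA4, EXPA8, EXPA9, EXPA15, EXPB2, EXPB3, EXLA1, EXLA2, EXLA3 and EXLB1 among the expansins. EXLA2 passed through 2 shoot arrays, EXPB2 through 4 root arrays and EXLA3 through 5 root arrays. EXPA8 passed through its 14 shoot arrays alone, and XTH20 and EXPA9 through 11 and 12 root arrays alone. For all of these genes, the groups in which they were high also decided that they were tested. The 4 XTH genes that did not pass had signals of at most 29.8 in shoots and 60.8 in roots, and the 6 such expansins at most 31.0 in shoots and 49.2 in roots.

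In shoots, XTH18 and XTH19 rose within 0.5 h and lay far below their starting level at 12 h, while XTH32 and XTH16 were lower at 3 h and 6 h and back near the 0.25 h level at 24 h. Over time, 4 of 5 tested XTH genes were called in shoots by the F test, beside 85.8% of all probe sets, so a call over time says little in this organ. At 0.5 h, 2 XTH genes were higher and 0 lower, where 7.72% of all probe sets were higher and 6.33% lower. At 1 h again 2 were called, both higher, where 26.7% of all probe sets were called in either direction. At 3 h, 1 was higher and 2 were lower (23.6% and 27.5% of all).

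At 6 h, 0 XTH genes were higher and 4 lower in shoots, where 31.6% of all probe sets were higher and 31.6% lower. At 12 h, 0 were higher and 3 lower (25.5% and 20.2% of all), and at 24 h, 0 were higher and 2 lower (14.4% and 11.4% of all). The median XTH change was 0.35 at 1 h, -0.59 at 6 h and -0.72 at 12 h, beside -0.02, -0.02 and 0.03 over all probe sets. With no filter on low signals 3 XTH genes, without XTH18, were called lower at 6 h, beside 45.0% of all probe sets called in either direction. The counts of 0 that limma gave for XTH genes in shoots at 0.5, 1, 6, 12 and 24 h were also 0 at an unadjusted p under 0.05. Leaving out 1 array gave 2 to 4 lower XTH genes at 6 h and 1 to 3 at 3 h. The summed shoot markers moved as well, to 12147 and 13384 at 6 h, against 20501 and 21768.5 at 0.25 h, and their part in these counts was not tested.

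XTH18 (AT4G30280) and XTH19 (AT4G30290), neighbouring genes on the chromosome and known as root XTH genes, showed the widest range of log2 values among the tested XTH genes in shoots. XTH18 had shoot signals of 48.3 and 49.8 at 0.25 h, 241 and 198 at 0.5 h, 288 and 233 at 1 h, 161 and 126 at 3 h, 38.4 and 22.8 at 6 h, 0.594 and 2.53 at 12 h, and 2.59 and 9.92 at 24 h. The arrays at 0.5, 1 and 3 h all lay above both 0.25 h arrays, and those from 6 h on all lay below them. The changes were 1.96 ± 0.24 at 0.5 h (adjusted p = 2.93e-05), 2.20 at 1 h (1.28e-06), 1.37 at 3 h (0.000112), -2.40 at 12 h (1.43e-07) and -1.93 at 24 h (1.08e-05). The change of -0.57 at 6 h passed narrowly (adjusted p = 0.0485) and was lost in 18 of 36 other settings. Among these were the omission of the first or the second 0.25 h array or of the second 6 h array. Over all settings the 6 h change lay between -0.86 and -0.29. With the pseudocount at the median signal of 41.6, the XTH18 changes at 12 h and 24 h were -1.07 and -0.93, still called.

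XTH19 followed XTH18 up and turned sooner. Its shoot signals were 24.4 and 55.3 at 0.25 h, 171 and 119.6 at 0.5 h, 162 and 71.2 at 1 h, 37.0 and 38.2 at 3 h, 7.43 and 11.5 at 6 h, 1.33 and 1.28 at 12 h, and 9.11 and 7.07 at 24 h. At 0.5 h and 1 h all arrays lay above both 0.25 h arrays, at 3 h both lay between them, and from 6 h on all lay below. The changes were 1.70 ± 0.27 at 0.5 h (adjusted p = 0.000425), 1.33 at 1 h (0.00126), 0.01 at 3 h (0.987), -1.31 at 6 h (0.000396), -2.11 at 12 h (4.11e-06) and -1.41 at 24 h (0.000935). The 1 h value rested partly on single arrays, being 0.86 without the first 0.25 h array and 0.78 without the first 1 h array, called in both cases. Without the second 0.25 h array the XTH19 change at 6 h was -0.85, and with the larger pseudocount the changes at 6, 12 and 24 h were -0.65, -0.90 and -0.69, all called. Across the 7 time means, XTH18 and XTH19 correlated at 0.94 in shoots and 0.70 in roots, a description of points that share the same arrays. Probe sets of close relatives such as this pair can share signal, and how far they do was not tested. PYK10, the root marker found by symbol, had shoot signals of 593 and 928 at 0.25 h, 567 and 1459.9 at 0.5 h and 360.3 and 422 at 1 h. They were 281 and 313 at 12 h and 276 and 386 at 24 h. The part of PYK10 in the changes of XTH18 and XTH19 was not tested.

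XTH32 (AT2G36870), from the XTH subgroup in which xyloglucan-cutting activity is known, had its low point in shoots at 6 h. Its signals were 266 and 284 at 0.25 h, 294 and 342 at 0.5 h, 364 and 342 at 1 h, 173 and 172 at 3 h, 124 and 117 at 6 h, 162 and 164 at 12 h, and 295 and 278 at 24 h. The arrays at 3, 6 and 12 h lay below both 0.25 h arrays, while at 24 h they overlapped with them. XTH32 changed by -0.64 ± 0.14 at 3 h (adjusted p = 0.000739), -1.13 at 6 h (5.69e-07) and -0.72 at 12 h (0.000266), and by 0.06 at 24 h (0.808). These 3 calls held in every setting tried.

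XTH16 (AT3G23730) had shoot signals of 93.0 and 119 at 0.25 h, 107 and 133 at 0.5 h, 106 and 94.2 at 1 h, 59.8 and 81.4 at 3 h, 63.4 and 69.7 at 6 h, 92.5 and 81.5 at 12 h, and 108 and 137 at 24 h. Only the 3, 6 and 12 h arrays lay wholly below the 0.25 h arrays. It fell by 0.53 ± 0.16 at 3 h (adjusted p = 0.00854) and by 0.59 at 6 h (0.00278). The 3 h call was lost without the second 0.25 h array (-0.37, adjusted p = 0.123) or the first 3 h array (-0.33, 0.165), and the 6 h call without the second 0.25 h array (-0.43, 0.0582). XTH20 (AT5G48070), the fifth tested gene, stayed between 1.17 and 12.5 in shoots and was not called at any time or over time (adjusted p = 0.627).

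**Figure D1:**
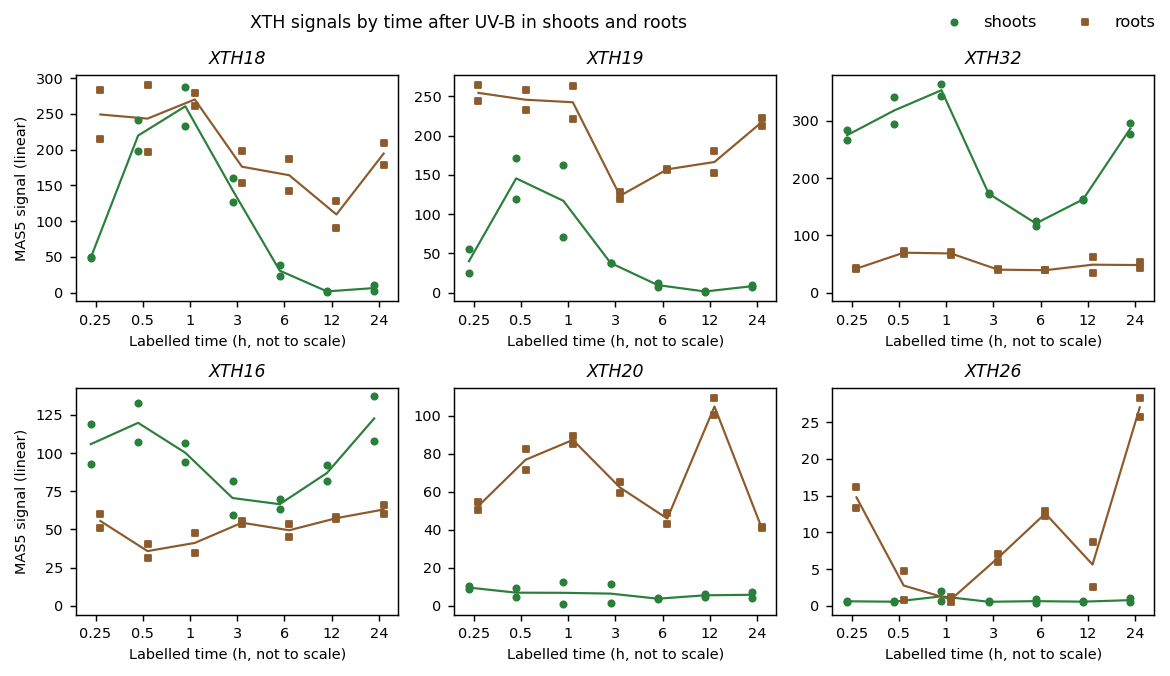
MAS5 signals (linear, vertical axis, scaled per panel) of 6 XTH genes at the 7 labelled times (evenly spaced, not to scale), with shoots as green circles, roots as brown squares, 1 point per array and lines through the mean of 2 arrays. XTH18 and XTH19 peak in shoots at 0.5 to 1 h and are near 0 at 12 h, while XTH32 is lowest in shoots at 6 h; XTH26 did not pass the filter on low signals.

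All 5 tested XTH genes were called over time in roots by the F test, beside 53.5% of all probe sets. There XTH32 rose at 0.5 h and 1 h, XTH20 rose at 12 h, XTH18 fell at 12 h and XTH19 fell at 3 h. At 0.5 h, 1 XTH gene was higher and 1 lower, where 5.61% and 4.13% of all probe sets were. At 1 h, 1 was higher and 0 lower (6.29% and 6.29% of all), at 3 h, 0 were higher and 1 lower (11.9% and 11.3%), and at 12 h, 1 was higher and 1 lower (11.5% and 9.79%). No XTH gene was called in roots at 6 h or 24 h by limma, where 7.88% and 7.08% of all probe sets were higher and 7.90% and 7.26% lower. At an unadjusted p under 0.05, 2 were lower at 6 h and 0 were called at 24 h, and 1 was lower at 1 h.

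XTH18 had root signals of 283 and 215 at 0.25 h, 291 and 196 at 0.5 h, 260.5 and 279.7 at 1 h, 198 and 154 at 3 h, 186 and 142 at 6 h, 90.3 and 128 at 12 h, and 179 and 209.8 at 24 h. The arrays at 0.5 h and 1 h overlapped with those at 0.25 h, those from 3 h on lay below both of them, and the 12 h arrays were the lowest. Its change at 12 h was -1.13 ± 0.24 (adjusted p = 0.00271), and without the first 0.25 h root array it was -0.94 (0.0504). XTH19 had root signals of 244 and 265 at 0.25 h, 258 and 233 at 0.5 h, 221 and 264 at 1 h, 128 and 119 at 3 h, 156 and 158 at 6 h, 152 and 180.3 at 12 h, and 222 and 212 at 24 h. It was lowest at 3 h, where both arrays lay below all others. The change there was -0.99 ± 0.27 (adjusted p = 0.0134), and omission of any 1 of the 4 arrays compared ended the call (0.0524 to 0.0889).

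XTH20, another root XTH gene, had root signals of 50.3 and 54.6 at 0.25 h, 71.3 and 82.2 at 0.5 h, 85.0 and 89.3 at 1 h, 59.2 and 65.0 at 3 h, 48.6 and 43.0 at 6 h, 100.3 and 109 at 12 h, and 41.2 and 40.6 at 24 h. It was high at 1 h and highest at 12 h, and both 24 h arrays lay below both 0.25 h arrays. The 12 h rise was 0.88 ± 0.26 (adjusted p = 0.0180), and the call ended on omission of any 1 of the 4 arrays compared (adjusted p of 0.0547 to 0.108). At 12 h in roots, XTH20 was thus called higher and XTH18 lower than at 0.25 h.

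XTH32 had root signals of 43.2 and 40.3 at 0.25 h, 71.8 and 67.3 at 0.5 h, 71.6 and 65.0 at 1 h, 40.4 and 39.4 at 3 h, 39.2 and 38.8 at 6 h, 34.9 and 62.2 at 12 h, and 53.3 and 42.6 at 24 h. All 4 arrays at 0.5 h and 1 h lay above every other root array. The rises were 0.62 ± 0.14 at 0.5 h (adjusted p = 0.00657) and 0.60 at 1 h (0.00571), or 0.42 and 0.40, both called, with the larger pseudocount. The 0.5 h call was lost without the second 0.25 h array (0.0623) or the first 0.5 h array (0.0681), and the 1 h call without the second 0.25 h array (0.0537) or the first 1 h array (0.0707). The summed shoot markers in roots were 429 and 498 at 0.5 h and 338 and 346 at 1 h, against 324 and 380.5 at 0.25 h, and their part in the rise was not tested.

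XTH16 had root signals of 50.8 and 60.3 at 0.25 h, 40.2 and 31.5 at 0.5 h, 47.8 and 34.6 at 1 h, 53.6 and 55.3 at 3 h, 53.9 and 45.1 at 6 h, 56.6 and 58.2 at 12 h, and 60.0 and 66.2 at 24 h. The 0.5 h and 1 h arrays lay below both 0.25 h arrays. The fall by 0.52 ± 0.16 at 0.5 h (adjusted p = 0.0406) was fragile and was lost in 8 of 36 other settings, among them the omission of the first (0.069) or second (0.264) 0.25 h array, the first (0.0558) or second (0.337) 0.5 h array, or the first or second 3 h array (0.0508 each). XTH16 and XTH32 correlated at 0.87 across the 7 shoot means and at -0.77 across the 7 root means.

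The time course differed between shoots and roots in all 5 tested XTH genes by the interaction F test, which called 72.2% of all probe sets. For XTH18 the shoot change exceeded the root change by 2.01 ± 0.35 at 0.5 h (adjusted p = 0.00203), 2.07 at 1 h and 1.85 at 3 h. At 12 h and 24 h the sign was the other way for XTH18, at -1.27 (0.00983) and -1.59 (0.00448). Both later values were lost with the larger pseudocount, at -0.12 (0.755) and -0.63 (0.0933), and the 12 h value also without the second 0.25 h root array (0.0516) or the second 12 h root array (0.0558). For XTH19 the difference was 1.75 ± 0.39 at 0.5 h (0.0116) and -1.52 at 12 h (0.00659). The first of these was lost without the first 0.5 h shoot array (0.0615) or the second 0.5 h root array (0.0553), and the last with the larger pseudocount (-0.39, 0.331). The XTH32 change was lower in shoots than in roots, with a difference of -1.05 ± 0.20 at 6 h (0.000205) and -0.86 at 12 h (0.00276), where it was -0.52 without the second 12 h root array. At single times 2 XTH genes differed between the organs at 0.5 h (6.12% of all probe sets did), 2 at 1 h (14.2%), 2 at 3 h (36.1%), 1 at 6 h (48.7%), 4 at 12 h (26.5%) and 1 at 24 h (12.4%).

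Among the tested expansins in shoots, 6 h was the low point of most. Of the 10 tested genes, 9 were lower at 6 h than at 0.25 h and 0 were higher, beside 31.6% of all probe sets lower and 31.6% higher. The exception was EXPB2. The median expansin change at 6 h was -0.98, beside -0.02 over all probe sets, and 7 of the 10 had their lowest shoot mean at that time. The 9 lower genes came from all 4 expansin subfamilies, with EXPA8, EXPA4, EXPA15, EXPA9, EXPB3, EXLA1, EXLA2, EXLA3 and EXLB1 among them. The lower count lay between 6 and 9 when 1 array was left out. Without the filter it was 10 of all 16 expansins, beside 45.0% of all probe sets called in either direction. As given above for the XTH genes, the summed shoot markers were also lowest at 6 h and 12 h, and their part in the count was not tested.

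At 0.5 h in shoots, 1 expansin was higher and 1 lower (7.72% and 6.33% of all probe sets), and at 1 h, 3 were called, 2 higher and 1 lower (26.7% of all in either direction). At 3 h, 0 were higher and 6 lower (23.6% and 27.5%), with a median change of -0.52 beside -0.06 over all. At 12 h, 1 was higher and 4 lower (25.5% and 20.2%), and at 24 h, 1 was higher and 2 lower (14.4% and 11.4%). At an unadjusted p under 0.05 the counts of 0 higher expansins at 3 h and 6 h stayed at 0 in limma. By the F test over time 8 of 10 were called, all but EXPA15 (adjusted p = 0.177) and EXPB2 (0.532), beside 85.8% of all probe sets.

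EXPA8 (AT2G40610), an alpha-expansin, was called lower in shoots at every time between 0.5 h and 12 h. Its signals were 385 and 429 at 0.25 h, 166 and 175 at 0.5 h, 202 and 165 at 1 h, 89.3 and 96.5 at 3 h, 101 and 57.6 at 6 h, 119.9 and 115 at 12 h, and 735 and 653 at 24 h. Every array at 0.5 to 12 h lay below both 0.25 h arrays, and both 24 h arrays lay above them. The changes were -1.21 ± 0.21 at 0.5 h (adjusted p = 0.000506), -1.11 at 1 h (0.000329), -2.02 at 3 h (6.36e-08), -2.27 at 6 h (6.20e-09) and -1.71 at 12 h (7.21e-07). The 24 h change was 0.76 (0.0102), which was lost without the first 0.25 h array (0.68, 0.0628) or the first 24 h array (0.67, 0.0723).

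The other alpha-expansins had smaller falls in shoots at 6 h. EXPA4 (AT2G39700) had 93.2 and 78.2 at 0.25 h, 29.6 and 32.6 at 6 h and 58.6 and 33.5 at 24 h, with changes of -1.22 ± 0.21 at 6 h (adjusted p = 5.55e-05) and -0.81 at 24 h (0.00899). The first of these was -0.81 with the larger pseudocount, and the 24 h call was lost without the first 0.25 h array (-0.70, 0.0688) or the second 24 h array (-0.48, 0.170). EXPA9 (AT5G02260) had signals of 8.49 and 13.7 at 6 h, against 20.98 and 24.7 at 0.25 h, a fall by 0.66 ± 0.20 (0.00558) that was lost without the first 6 h array (-0.48, 0.0894) and was -0.29 with the larger pseudocount. Its change of -0.48 at 3 h (0.0462) was lost in 18 of 36 other settings, with a highest adjusted p of 0.397 on omission of the first 3 h array (-0.26) and 0.195 on omission of the second 0.25 h array. EXPA15 (AT2G03090) had 38.8 and 47.7 at 6 h, against 66.4 and 83.0 at 0.25 h, a fall by 0.67 ± 0.24 (0.0209) that was lost without the second 0.25 h array (0.141) or the first 6 h array (0.131).

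Of the beta-expansins, EXPB3 (AT4G28250) was called in shoots only at 6 h, with signals of 24.7 and 32.1, against 58.1 and 76.3 at 0.25 h, a change of -1.01 ± 0.26 (adjusted p = 0.00222), or -0.63 with the larger pseudocount. EXPB2 (AT1G65680) stayed between 10.1 and 25.1 in shoots and was not called at any time.

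The 3 EXLA genes were called lower in shoots at 3, 6 and 12 h, and EXLA1 and EXLA2 were first higher. EXLA1 (AT3G45970) had shoot signals of 85.0 and 112 at 0.25 h, 180.2 and 205 at 0.5 h, 227 and 229.7 at 1 h, 23.7 and 18.5 at 3 h, 23.3 and 23.3 at 6 h, 7.38 and 15.9 at 12 h, and 26.1 and 66.8 at 24 h. The 0.5 h and 1 h arrays all lay above, and the arrays from 3 h on all below, both 0.25 h arrays. The changes were 0.91 ± 0.24 at 0.5 h (adjusted p = 0.0137), 1.15 at 1 h (0.00107), -1.81 at 3 h (2.96e-06), -1.70 at 6 h (3.68e-06), -2.36 at 12 h (9.27e-08) and -1.04 at 24 h (0.00324). The 0.5 h call was lost without the first 0.25 h array (0.116), the first 0.5 h array (0.0514) or the second 0.5 h array (0.0668). The 24 h value rested on 1 array, at -0.49 (0.0811) without the first 24 h array and -1.59 without the second. EXLA1 changed by -1.15, -1.10 and -1.39 at 3, 6 and 12 h with the larger pseudocount.

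EXLA2 (AT4G38400), a gene studied for its part in infection by Botrytis, had shoot signals of 17.2 and 28.2 at 0.25 h, 28.7 and 20.4 at 0.5 h, 39.1 and 47.8 at 1 h, 1.42 and 3.89 at 3 h, 0.680 and 2.40 at 6 h, 4.03 and 10.8 at 12 h, and 6.51 and 16.5 at 24 h. The 1 h arrays were the highest and the only arrays on which the gene exceeded the array's median, so they also decided that it was tested. It changed by 0.73 ± 0.25 at 1 h (adjusted p = 0.0367), -1.39 at 3 h (0.000105), -1.52 at 6 h (2.24e-05) and -0.93 at 12 h (0.00477). The 1 h call was lost without the first 0.25 h array (0.48, 0.276), the first 1 h array (0.0559) or the second 1 h array (0.194), and the 12 h call without the second 0.25 h array (-0.68, 0.0759) or the first 12 h array (-0.64, 0.0990). The EXLA2 changes at 1, 3, 6 and 12 h under the larger pseudocount were 0.41, -0.53, -0.57 and -0.39, all called. With no filter the 1 h rise passed narrowly (limma adjusted p = 0.0475), and in separate fits for shoots and roots it was not called.

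EXLA3 (AT3G45960), which neighbours EXLA1 on the chromosome, had low signals in shoots, which were 7.87 and 6.73 at 0.25 h, 11.7 and 9.59 at 0.5 h, 6.08 and 6.16 at 1 h, 3.18 and 2.48 at 3 h, 3.66 and 3.46 at 6 h, 0.291 and 0.626 at 12 h, and 3.40 and 4.71 at 24 h. It was called lower at 3, 6 and 12 h, with changes of -0.44 ± 0.15 (adjusted p = 0.0150), -0.36 (0.0367) and -0.75 (0.000237), on signals below every array's median. Under the larger pseudocount they were -0.14 (0.116), -0.11 (0.175) and -0.22 (0.0170). The 3 h call was also lost without the first 0.25 h array (0.0760) or the second 3 h array (0.0761), and the 6 h call without any 1 of the 4 arrays compared (0.0565 to 0.140).

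EXLB1 (AT4G17030) was the only tested expansin that was called higher in shoots at 12 h. Its signals were 77.5 and 87.5 at 0.25 h, 42.4 and 77.6 at 0.5 h, 62.1 and 66.5 at 1 h, 42.1 and 32.9 at 3 h, 43.2 and 33.1 at 6 h, 219 and 234 at 12 h, and 76.5 and 50.2 at 24 h. The lowest were the 3 h and 6 h arrays and 1 array at 0.5 h, and the 12 h arrays stood above every other. It changed by -0.97 ± 0.18 at 3 h (adjusted p = 0.000120), -0.95 at 6 h (9.76e-05) and 1.36 at 12 h (2.35e-06), and these 3 calls held in every setting tried.

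**Figure D2:**
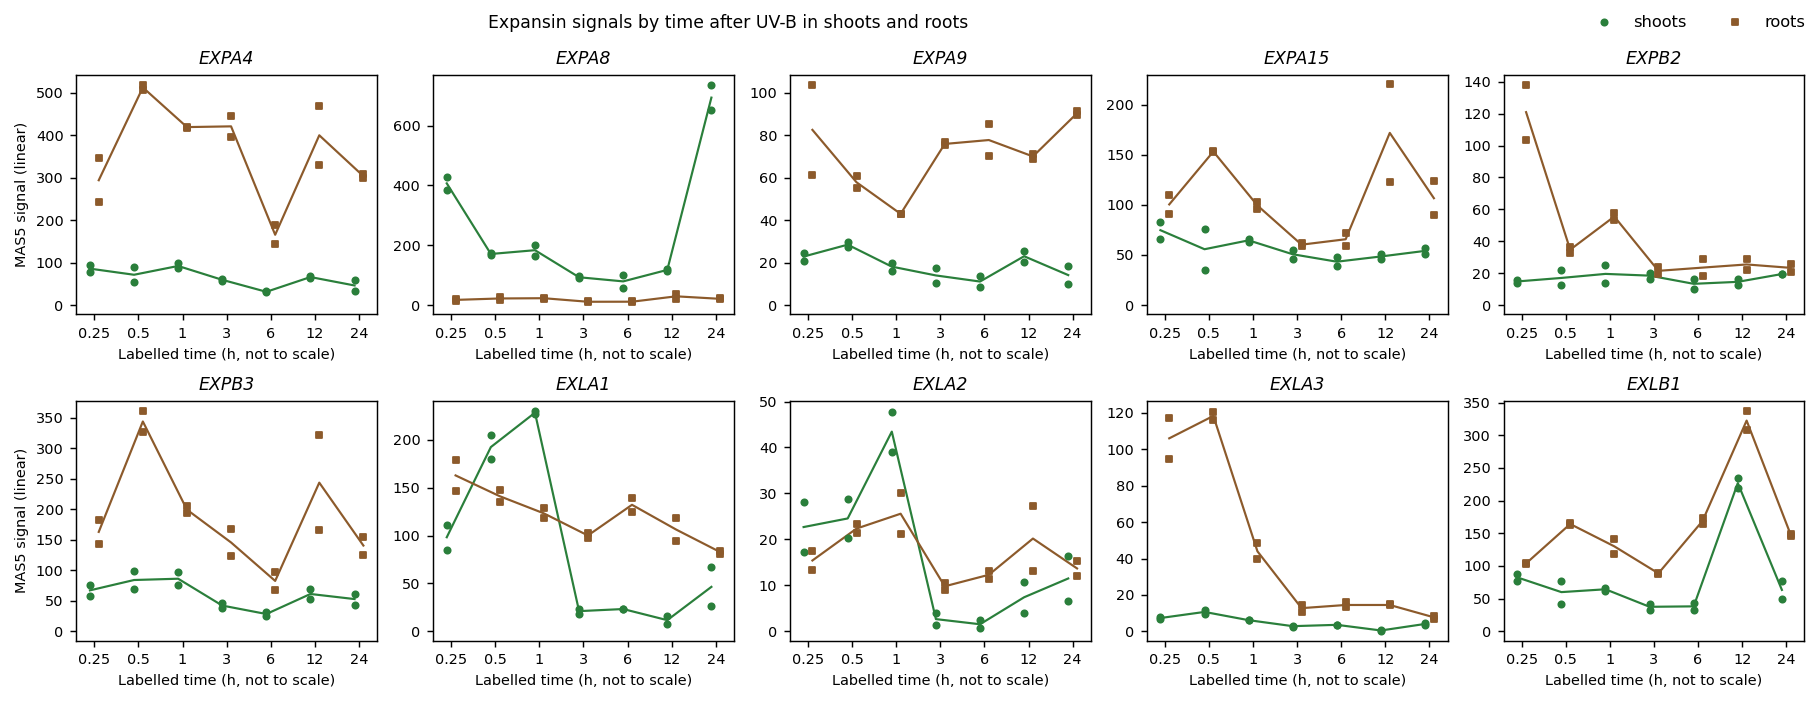
MAS5 signals (linear, vertical axis, scaled per panel) of the 10 tested expansins at the 7 labelled times (evenly spaced, not to scale), with shoots as green circles, roots as brown squares, 1 point per array and lines through the mean of 2 arrays. EXPA8 in shoots dips from 0.5 h to 12 h, EXPB2 and EXLA3 fall early in roots, and EXLB1 peaks at 12 h in both organs.

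In roots, EXLA3 and EXPB2 fell and stayed low to 24 h, EXLB1 rose at 12 h, and EXPA4 and EXPB3 were higher at 0.5 h and lower at 6 h. At 0.5 h, 3 expansins were higher and 1 lower, where 5.61% and 4.13% of all probe sets were. At 1 h, 0 were higher and 3 lower (6.29% and 6.29% of all), and at 3 h, 0 were higher and 2 lower (11.9% and 11.3%). At 6 h, 1 was higher and 4 lower (7.88% and 7.90%), at 12 h, 1 was higher and 2 lower (11.5% and 9.79%), and at 24 h, 0 were higher and 3 lower (7.08% and 7.26%). At an unadjusted p under 0.05, 1 expansin was higher in limma at each of 1, 3 and 24 h. Over time 9 of 10 were called by the F test, all but EXLA2 (adjusted p = 0.0577), beside 53.5% of all probe sets. Leaving out 1 array gave 0 to 3 higher expansins at 0.5 h, 1 to 3 lower at 1 h and 2 to 4 lower at 6 h in roots, as the values by gene below show.

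EXLA3 had root signals of 117 and 94.7 at 0.25 h, 116 and 121 at 0.5 h, 39.5 and 48.3 at 1 h, 10.8 and 14.7 at 3 h, 15.8 and 13.1 at 6 h, 14.2 and 14.7 at 12 h, and 6.84 and 8.54 at 24 h. All arrays from 1 h on lay below both 0.25 h arrays, and those from 3 h on lay far below. The changes were 0.15 ± 0.15 at 0.5 h (adjusted p = 0.605), -1.11 at 1 h (1.14e-05), -2.37 at 3 h (9.73e-11), -2.26 at 6 h (4.17e-10), -2.26 at 12 h (2.13e-10) and -2.74 at 24 h (2.81e-11). With the larger pseudocount the EXLA3 changes at 3, 6, 12 and 24 h were -1.44, -1.39, -1.39 and -1.58. EXLA3 is 1 of the genes kept by its high root arrays, those at 0.25 h and 0.5 h and 1 at 1 h, and all 5 root calls also held with no filter.

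EXLA1 had root signals of 179 and 147 at 0.25 h and between 81.2 and 148 later, and its change was called only at 24 h, at -0.90 ± 0.24 (adjusted p = 0.0148). That call was lost without the first 0.25 h array (0.115), the first 24 h array (0.0624) or the second 24 h array (0.0932). EXLA2 stayed between 9.03 and 30.1 in roots with no call. Across the 7 time means EXLA1 and EXLA3, the chromosome neighbours, correlated at 0.89 in shoots and 0.84 in roots, and EXLA1 and EXLA2 at 0.92 in shoots and 0.32 in roots.

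EXLB1 had root signals of 103 and 105 at 0.25 h, 163 and 165 at 0.5 h, 118 and 142 at 1 h, 90.0 and 87.4 at 3 h, 163 and 174 at 6 h, 307 and 337 at 12 h, and 149 and 146 at 24 h. Only the 3 h arrays lay below the 0.25 h arrays, and the 12 h arrays were again the highest. The changes were 0.61 ± 0.18 at 0.5 h (adjusted p = 0.0328), 0.65 at 6 h (0.0165) and 1.55 at 12 h (1.88e-06). The 0.5 h and 6 h calls were each lost without any 1 of the 4 arrays compared (0.130 to 0.157 and 0.0607 to 0.115), while the 12 h call held in every setting.

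EXPB2, a beta-expansin, had root signals of 104 and 138 at 0.25 h, 32.9 and 36.5 at 0.5 h, 53.5 and 57.5 at 1 h, 19.2 and 23.6 at 3 h, 28.6 and 18.3 at 6 h, 22.0 and 28.9 at 12 h, and 20.7 and 25.9 at 24 h. Every later array lay below both 0.25 h arrays, and the 1 h arrays lay above those at 0.5 h. Its changes were -1.55 ± 0.21 at 0.5 h (adjusted p = 5.95e-05), -0.99 at 1 h (0.00193), -2.06 at 3 h (1.58e-07), -1.99 at 6 h (4.86e-07), -1.89 at 12 h (7.27e-07) and -1.98 at 24 h (5.51e-07). The 1 h call was lost without the second 0.25 h array (-0.80, 0.0511). Changes of -1.36, -1.32 and -1.32 were found for EXPB2 at 3, 6 and 24 h with the larger pseudocount. The gene was kept by its 0.25 h and 1 h root arrays, and its 6 calls also held with no filter.

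EXPB3 had root signals of 143 and 183 at 0.25 h, 361 and 327 at 0.5 h, 205 and 194 at 1 h, 123 and 168 at 3 h, 97.2 and 68.2 at 6 h, 166 and 322 at 12 h, and 155 and 126 at 24 h. The 0.5 h arrays were above all others, the 6 h arrays were the lowest, and the 12 h arrays lay far apart. The changes were 1.04 ± 0.26 at 0.5 h (adjusted p = 0.0147) and -0.91 at 6 h (0.0216). The first was lost without the first 0.25 h array (0.131), the first 0.5 h array (0.104) or the second 0.5 h array (0.0666), and the other without the second 0.25 h array (0.165) or the second 6 h array (0.213) or in a fit of roots alone (0.0525).

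EXPA4 had root signals of 242 and 346 at 0.25 h, 507 and 519 at 0.5 h, 420.5 and 418 at 1 h, 396 and 446 at 3 h, 188 and 143 at 6 h, 330.3 and 469 at 12 h, and 298 and 309 at 24 h. The 0.5 h arrays were the highest and the 6 h arrays the lowest, as for EXPB3. The changes were 0.80 ± 0.21 at 0.5 h (adjusted p = 0.0211) and -0.78 at 6 h (0.0169). The first was lost without the first 0.25 h array (0.56, 0.238), the first 0.5 h array (0.0977) or the second 0.5 h array (0.124), and the other without the second 0.25 h array (-0.54, 0.203) or the second 6 h array (-0.60, 0.188). EXPA4 and EXPB3 correlated at 0.87 across the shoot means and 0.88 across the root means.

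The remaining alpha-expansins were called in roots at 1 time at most. EXPA9 had 43.1 and 42.8 at 1 h, against 61.3 and 104 at 0.25 h, a fall by 0.77 ± 0.20 (adjusted p = 0.00948) that was lost without the second 0.25 h array (-0.43, 0.243), the first 1 h array (0.0593) or the second 1 h array (0.0655). EXPA15 was called over time (0.000683) but at no single time, with root signals between 58.7 and 221. EXPA8 was also called over time (0.00599) and at no single time, with root signals between 9.43 and 36.9, below the median of every array. EXPA8 and EXPA15 had the most alike root profiles among the tested expansins, with a correlation of 0.92 across the 7 means.

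**Figure D3:**
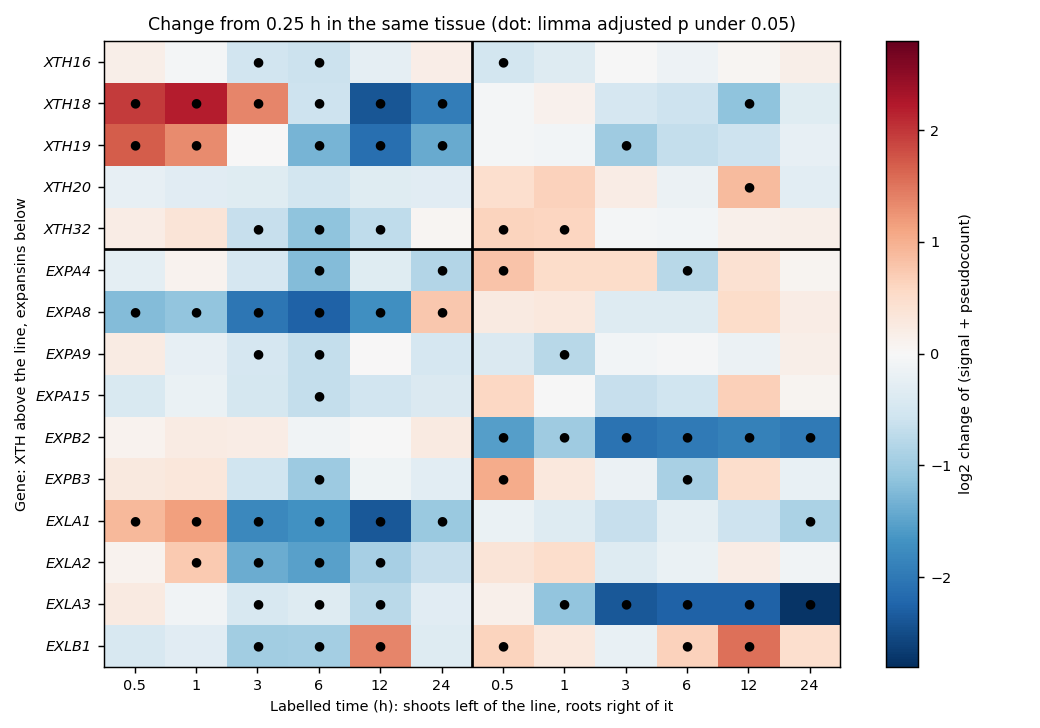
Log2 change of signal + pseudocount from 0.25 h in the same tissue (colour, red higher and blue lower) for 5 XTH genes above the line and 10 expansins below it, with shoots on the left, roots on the right and a dot where the limma adjusted p was under 0.05. The 6 h shoot column has dots for 9 of 10 expansins and 4 of 5 XTH genes, all on blue, and EXLA3 and EXPB2 are blue over most of the root columns.

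The time course differed between shoots and roots in 9 of 10 tested expansins by the interaction F test, all but EXPB3 (adjusted p = 0.266), beside 72.2% of all probe sets. The EXPA8 change was lower in shoots than in roots at every time between 0.5 h and 12 h, with differences of shoot minus root change between -1.41 and -2.24, the last at 12 h (SE 0.29, adjusted p = 7.72e-06). EXPB2 fell in roots and was not called in shoots, with differences of 1.22 to 2.26, and was the only tested expansin to differ between the organs at all 6 times. The 1 h difference of EXPB2 was lost without the second 1 h shoot array (0.94, 0.0537), and with the larger pseudocount the 3 h and 24 h differences were 1.45 and 1.43. EXLA3 differed from 1 h on, by 1.01 to 2.43. Its 24 h difference was 1.48 with the larger pseudocount.

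The EXLA1 change was higher in shoots than in roots at 1 h, with a difference of 1.52 ± 0.34 (adjusted p = 0.00421), and lower at 3 h (-1.16, 0.0106), 6 h (-1.43, 0.00165) and 12 h (-1.79, 0.000496). The 3 h value was lost without the second 0.25 h shoot array (0.0514), and with the larger pseudocount the 3, 6 and 12 h values were -0.63, -0.87 and -0.92, all called. EXLB1 differed at 6 h by -1.60 ± 0.25 (2.68e-05) and was not called different at 12 h, when it was higher in both organs. Single-time differences were called for 4 tested expansins at 0.5 h (6.12% of all probe sets), 4 at 1 h (14.2%), 7 at 3 h (36.1%), 6 at 6 h (48.7%), 6 at 12 h (26.5%) and 3 at 24 h (12.4%).

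Averaged over the 7 times, most of the tested genes had lower signals in shoots than in roots. Of the XTH genes, 2 were higher in shoots and 3 lower, and of the expansins 1 was higher and 9 were lower. Over all probe sets 31.4% were higher in shoots and 59.9% lower, with a median difference of -0.28, or -0.17 after quantile normalization between all arrays. XTH32 was higher in shoots by 2.003 ± 0.05 (adjusted p = 6.26e-20), with signals of 117 to 364 in shoots and 34.9 to 71.8 in roots, and XTH16 by 0.79 ± 0.06 (2.76e-11). XTH19 was lower in shoots, with a difference of -2.38 ± 0.10 (2.55e-14), as were XTH20 at -2.24 (9.93e-16) and XTH18 at -1.69 (6.01e-13). The ranges of XTH20 did not overlap, at 1.17 to 12.5 in shoots and 40.6 to 109 in roots. XTH20 passed the filter through root arrays alone, so its high signals there also decided that it was tested. At 0.5 h and 1 h, however, the XTH18 signals overlapped, at 198 to 288 in shoots and 196 to 291 in roots. With the larger pseudocount the differences of XTH18, XTH19 and XTH20 were -1.10, -1.58 and -1.16.

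Among expansins, EXPA8 was the gene higher in shoots, by 2.82 ± 0.08 (adjusted p = 3.86e-19), with signals of 57.6 to 735 in shoots and 9.43 to 36.9 in roots. Lower in shoots were EXPA4 at -2.31 ± 0.08 (1.75e-16), EXPA9 at -1.51 ± 0.07 (5.78e-15), EXLA3 at -1.50 ± 0.06 (2.66e-17) and EXPB3 at -1.45 ± 0.10 (3.03e-11). The other 5 lay between -1.03 (EXLB1) and -0.23 (EXLA2). EXPA8 passed the filter through shoot arrays alone, and EXPA9, EXLA3 and EXPB2 through root arrays alone. Their high signals in that organ thus also decided that they were tested. With the larger pseudocount EXPB3, EXPA9, EXLA3, EXLA1 and EXPB2 differed by -1.11, -0.89, -0.74, -0.58 and -0.46, so the order of these genes depended on the pseudocount. The EXLA2 difference (0.0313) was lost in 13 of 35 other settings, among them the larger pseudocount (-0.05, 0.228) and quantile normalization (-0.05, 0.637). At 24 h the organs lay closer for the genes kept by their early root arrays, with EXLA3 at 3.40 and 4.71 in shoots and 6.84 and 8.54 in roots. EXPB2 then had 19.7 and 19.2 in shoots and 20.7 and 25.9 in roots.

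**Figure D4:**
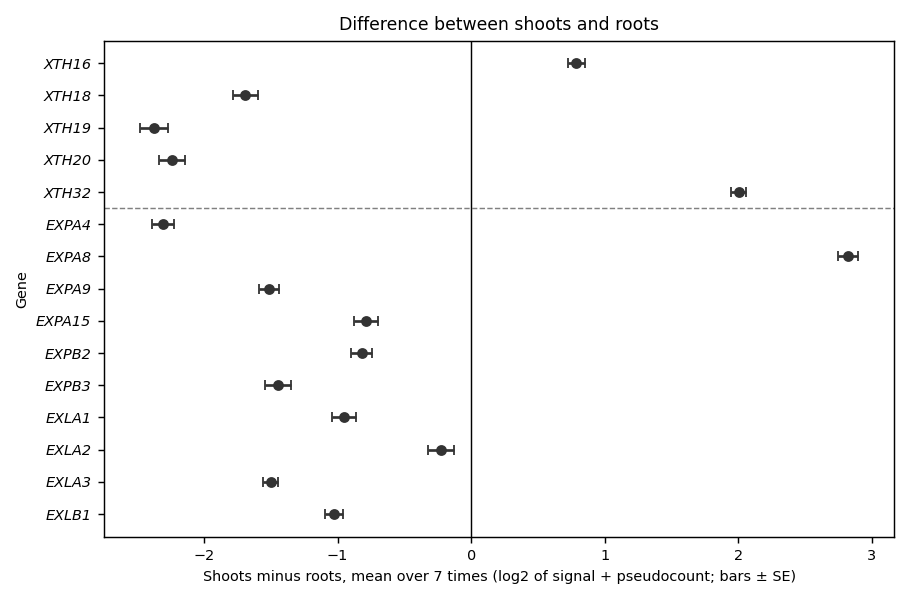
Shoots minus roots, averaged over 7 times, as the log2 difference of signal + pseudocount (horizontal axis; bars show the standard error) for the 5 tested XTH genes and 10 tested expansins. XTH32, XTH16 and EXPA8 lie right of 0, and EXPA4, XTH19 and XTH20 lie furthest left, below -2.

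The 10 genes that did not pass the filter were fitted only with no filter, on signals that exceeded the array's median on at most 1 of 28 arrays. In that fit, over time, 5 of 9 XTH genes and 9 of 16 expansins were called in shoots, beside 63.6% of all probe sets, and 7 of 9 and 9 of 16 in roots, beside 36.1%. XTH26, an enzyme known from root hairs, had root signals of 16.2 and 13.3 at 0.25 h, 4.68 and 0.841 at 0.5 h, 1.18 and 0.537 at 1 h, 5.97 and 7.11 at 3 h, 12.9 and 12.2 at 6 h, 2.49 and 8.74 at 12 h, and 28.3 and 25.7 at 24 h. It was near 0 at 0.5 h and 1 h and highest at 24 h. The changes included -0.995 ± 0.16 at 0.5 h (adjusted p = 0.000651), -1.22 at 1 h (2.31e-05) and 0.59 at 24 h (0.0247). Of all 9 XTH genes, 2 were called lower in roots at 3 h and 2 at 12 h in this fit. Over all probe sets it called 15.0% and 13.7% at these times, in either direction.

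XTH21, known for a part in root growth, had signals of 24.1 to 60.8 in roots and 0.167 to 1.27 in shoots, a difference of shoots minus roots of -2.16 ± 0.07 (adjusted p = 5.75e-18), and was called at no time in either organ. XTH33, a membrane-bound XTH, was higher in shoots at 0.5 h, with 29.8 and 22.4, against 14.9 and 8.59 at 0.25 h, a change of 0.75 (0.0251). XTH29 stayed below 10 in both organs and was called over time in roots by the F test (adjusted p = 0.00800). EXPB1 (AT2G20750), a beta-expansin, had shoot signals of 15.9 and 4.40 at 3 h and 6.71 and 5.32 at 6 h, against 31.0 and 29.6 at 0.25 h, and it fell by 1.08 ± 0.21 at 3 h (0.000250) and by 1.35 at 6 h (1.11e-05). EXPB1 was also called lower in shoots at 12 h, with 18.5 and 16.9. In roots it stayed between 24.7 and 49.2. EXPA16, EXPA20, EXPA21, EXPA24 and EXPB5 had no call at any single time in shoots or in roots.

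Other wall genes were taken from lists of symbols. EXGT-A3 (AT2G01850), the XTH27 gene under an older symbol, changed in shoots by -0.40 ± 0.12 at 1 h (adjusted p = 0.0129), -1.58 at 3 h (2.29e-10), -1.24 at 6 h (5.90e-09), -0.79 at 12 h (6.88e-06) and 0.38 at 24 h (0.0186). It was not called in roots. Of 5 named genes of xyloglucan synthesis 4 were tested, all of the CSLC family, whose members make the glucan backbone of xyloglucan. At 6 h in shoots 3 of the 4 were lower, where 31.6% of all probe sets were, with CSLC5 at -0.90 ± 0.10 (1.31e-07) and ATCSLC08 at -0.55 (0.00220). CSLC04 was lower in roots at every time from 1 h on, and at 12 h it changed by -1.19 (5.16e-07).

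Of 17 named genes of cellulose synthesis and trimming 7 were tested, COB and 6 endoglucanase genes of family GH9. At 6 h in shoots 1 was higher and 5 were lower, where 31.6% of all probe sets were higher and 31.6% lower, with COB, which guides cellulose deposition, at 0.22 ± 0.09 (adjusted p = 0.0383), GH9C2 at -1.17 (1.97e-05) and GH9B13 at -1.06 (0.00214). Of 6 named pectin genes 3 were tested, all pectin methylesterases. At 6 h in shoots 1 of these 3 was lower (31.6% of all probe sets were), ATPMEPCRB (AT4G02330). It changed by 1.03 ± 0.18 at 0.5 h (0.000561) and -2.10 at 6 h (1.82e-09) in shoots and by -2.17 at 6 h (1.75e-08) in roots. At 12 h in shoots 2 were higher and 1 lower (25.5% and 20.2% of all probe sets). PMEPCRF changed in shoots by -0.77 at 3 h (2.08e-05), 0.72 at 12 h (5.33e-05) and 1.46 at 24 h (8.60e-09). PME61 changed there by -0.74 at 0.5 h (0.0120) and 0.78 at 12 h (0.00205).

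The list of structural wall proteins held 2 tested symbols, of which PEX4 (AT5G25760) is a peroxisome gene and no wall gene. The other, the extensin HRGP1, fell in roots by 1.04 ± 0.18 at 1 h (adjusted p = 0.000331) and was not called in shoots. Both tested growth regulators were lower in shoots at 3, 6 and 12 h, where 27.5%, 31.6% and 20.2% of all probe sets were. HAT2, an auxin-induced homeodomain gene, changed by -1.15 ± 0.12 at 6 h (2.08e-08) and -1.90 at 12 h (1.17e-11), and BIM1, a partner of brassinosteroid transcription factors, by -0.74 at 3 h (1.94e-05) and -0.29 at 6 h (0.0351). Over all probe sets the median change in shoots at 6 h was -0.02.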

How the data were processed

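Values were signal intensities, 1 per probe set and array, as deposited by the authors on a linear scale, and computed with MAS5 per the submitters' processing notes. The MAS5 version and any genome build are not given in the sources used here. No coordinates or sequences are given. Of 22746 probe sets without controls, 13513 matched 1 gene, 503 several and 8730 none in the platform's annotation. All 25 members matched a RefSeq gene. From there, log2(signal + 9.58), with the 25th percentile of all signals as pseudocount, was fitted for 14806 probe sets with 14 group means in limma 3.58.1 (R 4.3.3, statmod 1.5.0; trend and robust options; 14 residual and 7.24 prior degrees of freedom). P-values were 2-sided and adjusted by Benjamini-Hochberg over all probe sets within each comparison. The procedure was tested on simulated data.

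The members and gene lists were chosen with earlier results of these data known. Values on every array are given for up to 5 members per family and tissue with the highest F over time. The genes of the largest called change each way per time and of the 3 largest tissue differences each way are named. Other single values were chosen after they were seen. The alternatives tried were another pseudocount, quantile normalization, centring, no filter, separate fits, no trend, a replicate block, a random block and leaving out each array. The number of arrays limits the precision.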

Additional observations from a re-analysis of the deposited data

Results flagged for a closer look

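For 12 of the 15 tested genes the change from 0.25 h differed between shoots and roots at 1 or more of the 6 later times by the interaction contrast in limma, as it did for 67.4% of all probe sets. The largest such difference of each gene is given here as the shoot minus the root change on the log2 scale. Among the XTH genes it was 2.07 ± 0.35 for XTH18 at 1 h, with changes of 2.20 in shoots and 0.12 in roots (adjusted p = 0.000413). For XTH19 at 0.5 h it was 1.75 ± 0.39, with 1.70 in shoots and -0.05 in roots (0.0116). For XTH20 at 12 h it was -1.23 ± 0.36, with -0.34 in shoots and 0.88 in roots (0.0151), and it was lost without the second 12 h shoot array (0.0563). For XTH32 at 6 h it was -1.05 ± 0.20, with -1.13 in shoots and -0.08 in roots (0.000205).

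Among the expansins the difference was -2.24 ± 0.29 for EXPA8 at 12 h (-1.71 in shoots and 0.52 in roots; adjusted p = 7.72e-06). For EXPA4 at 0.5 h it was -1.07 ± 0.30 (0.0420), a value lost in 18 other settings, with a highest adjusted p of 0.201 on omission of the first 0.5 h shoot array. For EXPA15 at 12 h it was -1.21 ± 0.34 (0.0126), lost without the second 0.25 h shoot array (0.0531), the first 0.25 h root array (0.0547) or the second 12 h root array (-0.81, 0.0852). For EXPB2 at 3 h it was 2.26 ± 0.29, with 0.20 in shoots and -2.06 in roots (3.81e-06). EXLA1 at 12 h differed by -1.79 ± 0.34, with -2.36 in shoots and -0.57 in roots (0.000496). EXLA2 at 6 h differed by -1.33 ± 0.36, with -1.52 in shoots and -0.19 in roots (0.00423). EXLA3 at 24 h differed by 2.43 ± 0.21, with -0.31 in shoots and -2.74 in roots (6.49e-08). EXLB1 at 6 h differed by -1.60 ± 0.25, with -0.95 in shoots and 0.65 in roots (2.68e-05).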

How the results depend on the processing

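No called value of the 15 tested genes changed sign under any setting tried. Of 127 called values, 117 were kept with the pseudocount at the median signal, 123 with quantile normalization, 124 with no filter, 125 with the replicate block, and all 127 with centring, without the trend and robust options, and with a random block. Separate fits kept 64 of 70, and leaving out 1 array kept 109 to 126. With the larger pseudocount the XTH counts in roots became 2 higher and 0 lower at 0.5 h and 2 higher at 1 h, and the expansin counts in roots 1 higher at 3 h, 2 at 12 h and 1 at 24 h. Quantile normalization gave 2 higher expansins at 12 h in roots. With no filter the XTH counts in roots were 1 lower at 1 h, 2 lower at 3 h, 2 lower at 12 h and 1 higher at 24 h. In that fit 8.29%, 15.0%, 13.7% and 9.32% of all probe sets were called at these times, in either direction. Separate fits gave in roots 2 higher XTH genes at 0.5 h and 2 at 1 h, and 1 lower at 6 h, 2 at 12 h and 1 at 24 h. For expansins they gave 0 higher at 0.5 h and 1 at 1 h in shoots, and in roots 1 higher at 1 h, 1 at 3 h, 2 at 12 h and 1 at 24 h, with 4 lower at 3 h. The cause was not tested.

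Leaving out 1 array at a time, the XTH counts in shoots ranged over 0 to 1 lower at 1 h, 1 to 3 lower at 3 h and 2 to 4 lower at 6 h. In roots they ranged over 0 to 1 higher and 0 to 1 lower at 0.5 h, 0 to 2 higher at 1 h, 0 to 1 lower at 3 h, 0 to 1 lower at 6 h, and 0 to 1 higher and 0 to 2 lower at 12 h. The expansin counts in shoots ranged over 0 to 1 higher and 1 to 3 lower at 0.5 h, 1 to 2 higher at 1 h and 0 to 1 higher at 24 h. In roots they ranged over 0 to 3 higher and 1 to 2 lower at 0.5 h, 1 to 3 lower at 1 h, 0 to 1 higher at 3 h, 0 to 1 higher and 2 to 4 lower at 6 h, 1 to 3 higher at 12 h and 0 to 1 higher at 24 h. The replicate block gave 2 higher expansins at 12 h in roots, against 1 without it, and moved no other count by over 1.5 times. Same-numbered arrays did not deviate together: the correlations were -0.22 to 0.11 in shoots (19 of 21 pairs under 0.1), -0.12 to 0.22 in roots (20 of 21) and -0.07 to 0.11 between organs, so the numbers were not taken to pair samples. Only the shoot-root difference had an all-probe median moved by over 0.1, to -0.17 with quantile normalization. With 2 arrays per group, low signals such as those of EXLA2 and EXLA3 in shoots limit what can be detected.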
